A study of Bombyx mori with 12 samples.

Results

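The batch 2 tetramolters were compared with the batch 1 trimolters of the silkworm Bombyx mori, the 2 groups of this RNA sequencing study in which cuticle protein genes took the largest shares of counts on average. The 6 libraries of these groups were taken by their labels from 12 in all, and the other libraries were batch 2 trimolters and batch 1 tetramolters, also with 3 in each group. All larvae were of the strain Guangri 3, in which trimolters, with 3 larval molts, prevail, while tetramolters molt once more. Poly(A) RNA came from the cephalothorax, that is, pooled head and thorax tissue, of larvae sampled at the molt of the third instar. The study reared larvae in spring at 25 °C and in autumn at 30 ± 2 °C and names photoperiod as another influence of season, but no label gives the season of a batch. The 2 groups therefore differed in batch and in molting type at once, and between them molting type cannot be told apart from season, rearing temperature, photoperiod or the batch of sequencing. The series text speaks of 3 silkworms of each molting type per season, and no label ties a library to 1 animal, so p-values measure only the spread between these libraries, which may be technical.

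Larval molts are timed by ecdysteroids, which the prothoracic glands in the thorax make from dietary sterols with a chain of enzymes, and juvenile hormone from the corpora allata in the head keeps a molt larval. As the ecdysteroid titre rises and falls, nuclear receptors and other transcription factors follow each other, and the epidermis lays down a cuticle of chitin and cuticle proteins whose makeup changes over the molt. A set of samples can therefore differ in hormone genes, in cuticle genes or in both, depending on when within the molt they were taken.

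Library totals ranged from 13449541 to 15650612 counts over all 12 libraries before rows of unannotated loci were left out. Values are given as CPM, counts scaled to a common library size. The batch 1 trimolters varied most: the SD of log2 CPM averaged 0.239 per gene in the batch 2 tetramolters, against 0.392 in the batch 1 trimolters, and it was 0.216 and 0.156 in the batch 2 trimolters and batch 1 tetramolters. Batch 1 trimolter 1 stood furthest from its group, with a Pearson correlation across genes of 0.928 with trimolter 2 of that batch. Among Hox genes, Scr, of head and front thorax segments, was at 7.70 to 8.59 CPM in the batch 2 tetramolters and 7.09 to 9.81 CPM in the batch 1 trimolters, and the abdominal genes abd-A and Abd-b did not exceed 0.489 CPM in any of these 6 libraries. The 5 silk gland markers summed to at most 1.68 CPM in a library. PTTH and torso, of the signal that starts ecdysteroid release, and Jhamt, of juvenile hormone synthesis, had too few counts to be tested.

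Cuticle protein genes took similar shares of the counts in the 2 groups. They held 13.0%, 11.6% and 11.9% of the counts in batch 2 tetramolters 1, 2 and 3, against 14.6%, 7.55% and 11.6% in batch 1 trimolters 1, 2 and 3. The ranges overlapped, and batch 1 trimolter 2 was lowest, close to the batch 2 trimolters (6.90% to 7.86%) and above the batch 1 tetramolters (5.0% to 5.27%). The share of genes with the Rebers and Riddiford (RR) chitin binding consensus, the largest cuticle protein family, was 6.82% to 7.85% in the batch 2 tetramolters and 4.79% to 6.55% in the batch 1 trimolters. These RR ranges did not overlap, so the groups were alike in the total share only. The pair had been picked for its high cuticle expression, so these shares are a description.

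**Figure D1:**
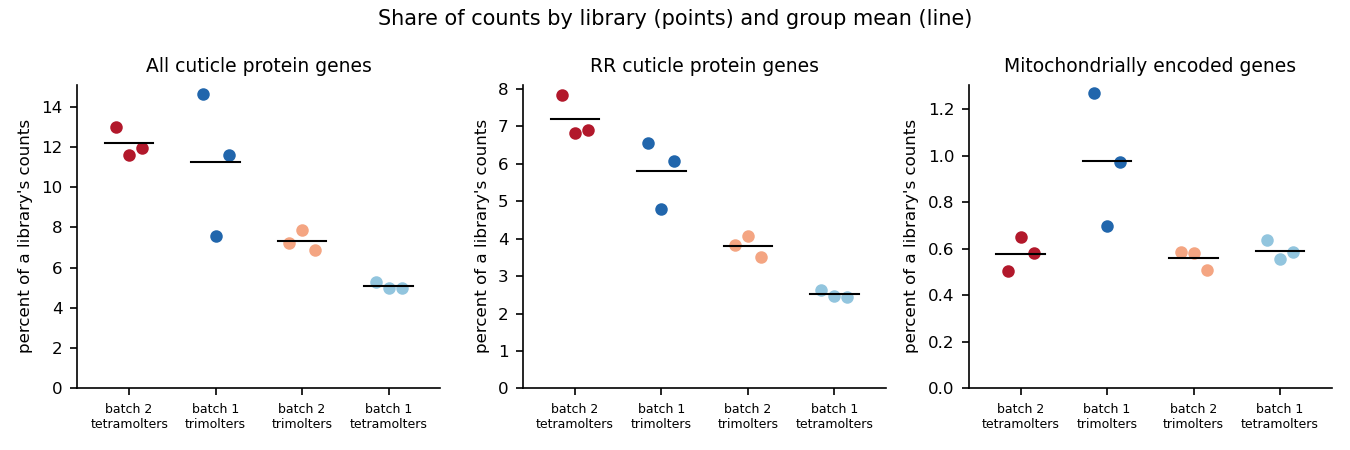
Percent of each library's counts in all cuticle protein genes, in RR cuticle protein genes and in mitochondrially encoded genes, by group. Points are libraries in the order 1 to 3 and lines are group means. Total cuticle shares of the batch 2 tetramolters (11.6% to 13.0%) lay within the range of the batch 1 trimolters (7.55% to 14.6%). Their RR shares (6.82% to 7.85%) lay above the range of the batch 1 trimolters (4.79% to 6.55%), and their mitochondrial shares lay below it.

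Between these groups alike in total cuticle share, 989 of 10263 tested genes differed (9.64%, edgeR quasi-likelihood test, Benjamini-Hochberg adjusted p under 0.05, fitted to the 6 libraries), 549 higher in batch 2 tetramolters (5.35%) and 440 lower (4.29%). The group ranges of all 989 did not overlap, which was so for 3802 of the tested genes (37%). A change of at least 1 log2 unit was seen in 522 (5.09%). The count rested on all 3 batch 2 tetramolter libraries: it was 90, 22 and 13 without tetramolter 1, 2 and 3 of that batch, and 902, 1052 and 653 without batch 1 trimolter 1, 2 and 3. All 989 genes kept their sign in these 6 fits. With all 12 libraries sharing 1 estimate of the spread, 3005 of 10721 genes passed (28%), 985 of the 989 among them, with 14.4% higher and 13.6% lower.

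The 12 genes called in each of the 6 fits with 1 library left out included the mitochondrial genes ND2, ND1 and ND5 and a mitochondrial ribosomal RNA, all lower, and CPR61 and Cyp307a1, higher. The other 6 had only a LOC number. Of the 989 called genes, 862 had no symbol beyond such a number in the gene table used, so the gene groups that follow can cover at most 127 of them. The median log2 change over all tested genes was -0.01. It ran from 0.21 in the tenth of genes with the shortest transcripts (median length 675 bases) to -0.21 in the tenth with the longest (7597 bases), and the part of transcript length in any 1 gene's change was not tested.

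The gene groups named here are symbol lists for hormones, cuticle, stress, immunity, metabolism, growth and tissues, and their members' changes are shown together in the plot of list members. Mitochondrially encoded genes had the lowest median (-1.95) and RR cuticle proteins the highest of the lists with more than 3 tested members (0.75).

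**Figure D2:**
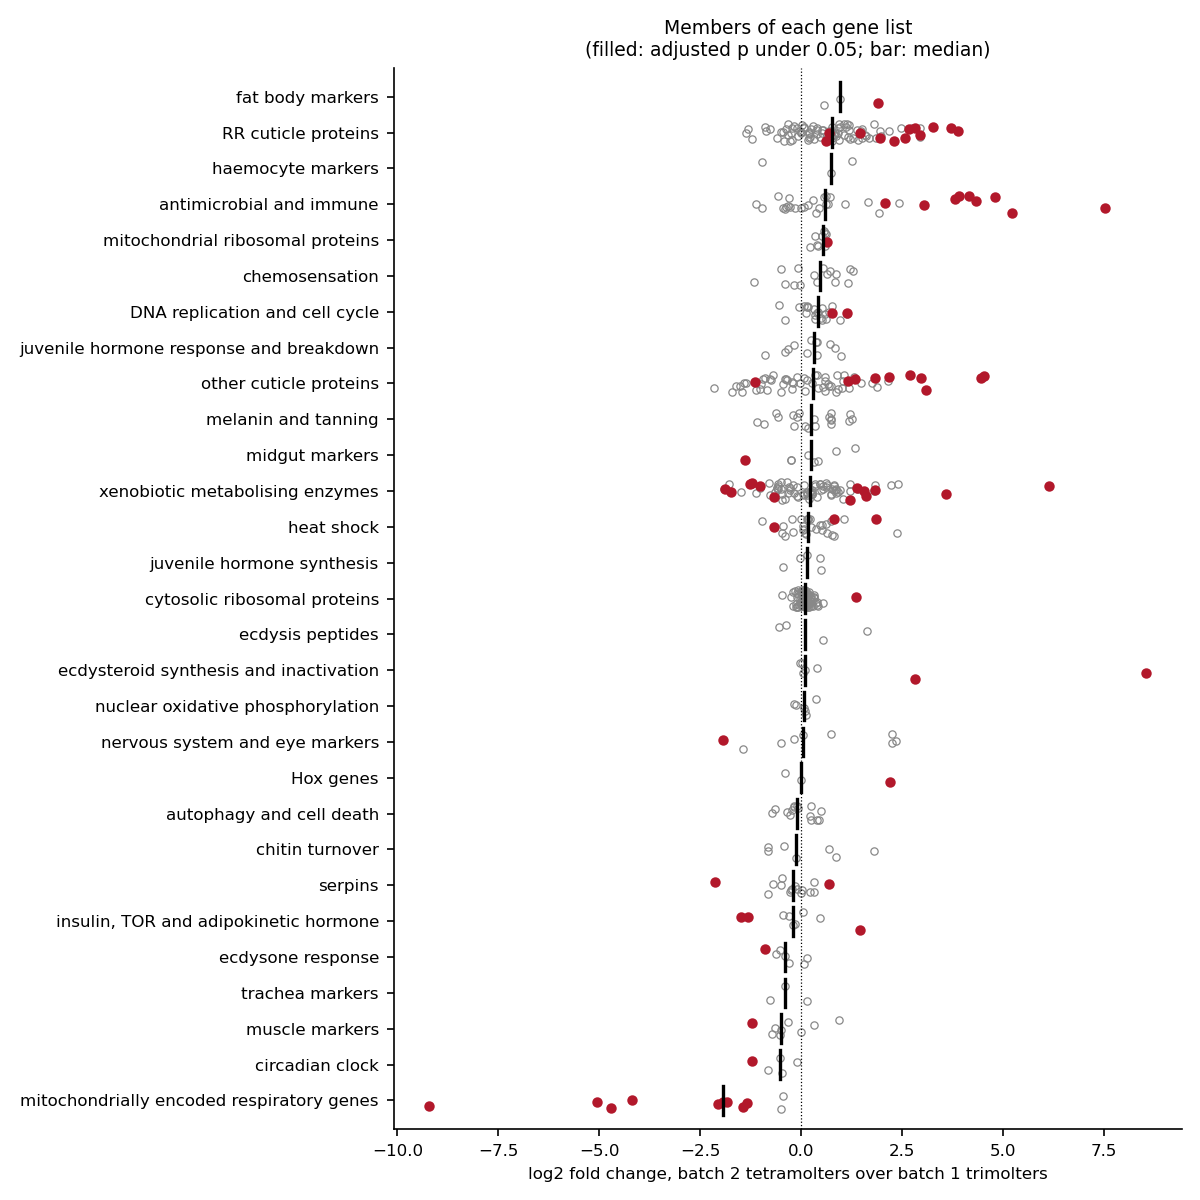
Log2 fold change, batch 2 tetramolters over batch 1 trimolters, of every tested member of each gene list with at least 3 such members (x axis), with lists ordered by median down the page. Filled points passed the test and open points did not, and bars are medians; 9 of 11 mitochondrially encoded genes are filled on the left, and 12 of 96 RR cuticle protein genes and 9 of 34 immune genes on the right.

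Ecdysteroid synthesis genes of the first steps were higher in the batch 2 tetramolters, and no gene of a later step passed the test. Cyp307a1, the P450 of the Spook type that acts in the early, poorly understood steps of the pathway, had 13.3, 5.36 and 16.0 CPM in batch 2 tetramolters 1, 2 and 3, against 0.0690, 0 and 0 CPM in batch 1 trimolters. It was all but silent outside the batch 2 tetramolters, with 0 to 0.0681 CPM in batch 2 trimolters and 0 to 0.268 CPM in batch 1 tetramolters. Summed over libraries it had 555 counts in batch 2 tetramolters and 1 count in batch 1 trimolters, 498 times as many per unit of library size (95% interval 89.1 to 19720, exact and for counting error only; edgeR adjusted p = 0.00969, and 0.0445 or less without any 1 library). It was not called by limma-voom with a weight per group (log2 change 7.73, adjusted p = 0.0607), and neither was any other gene of the list. Nvd, the Neverland oxygenase that takes the first step from cholesterol, had 5.36, 1.55 and 2.93 CPM in batch 2 tetramolters, against 0.483, 0.528 and 0.398 CPM in batch 1 trimolters (log2 fold change 2.82, SE 0.54, adjusted p = 0.0320). The groups did not overlap for either gene, and tetramolter 2 was lowest of its group for both.

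Cyp306a1, the Phantom hydroxylase, had 16.7, 19.6 and 14.2 CPM in batch 2 tetramolters and 18.9, 20.0 and 13.7 CPM in batch 1 trimolters (log2 fold change -0.03, SE 0.20, adjusted p = 0.940), where batch 2 trimolters and batch 1 tetramolters had 33.0 to 39.2 CPM and 60.9 to 65.6 CPM. The first 2 groups overlapped and lay below the other two. Cyp302a1, Cyp315a1 and Cyp314a1, of the last hydroxylations, had log2 changes of 0.08, 0.38 and 0.02, and Cyp18a1, which inactivates the hormone, at 0.04. None of these 5 passed the test. The list as a whole had 2 of 7 tested members higher and 0 lower, where 5.35% of all genes were higher and 4.29% lower, with a median of 0.08. The call of Nvd was lost without batch 2 tetramolter 1, 2 or 3 or batch 1 trimolter 3 (adjusted p up to 0.129, log2 change 2.27 to 3.15).

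Among the genes that respond to ecdysone, Ftz-f1, a nuclear receptor that in Drosophila is switched on as the ecdysteroid pulse ends, fell to 19.1, 12.3 and 15.7 CPM in batch 2 tetramolters, against 34.8, 26.4 and 29.3 CPM in batch 1 trimolters (log2 fold change -0.91, SE 0.19, adjusted p = 0.0364). No library of one group reached the other. USP, the partner of the ecdysone receptor, had 96.4, 99.5 and 87.9 CPM in batch 2 tetramolters and 172, 128 and 146 CPM in batch 1 trimolters, also without overlap, but missed the threshold (log2 fold change -0.62, SE 0.16, adjusted p = 0.0527). The receptor EcR (0.13) and the early response genes E75 (0.05), E74 (-0.53), Hr3 (-0.39) and Br-c (-0.31) had log2 changes with overlapping ranges, and none passed. Of the 7 genes 1 was called lower, where 4.29% of all genes were, 5 had a negative change and the median was -0.39. In the fit of all 12 libraries 3 were lower, where 13.6% of all genes were. The call of Ftz-f1 was lost without any 1 batch 2 tetramolter or without batch 1 trimolter 1 or 3, with a log2 change of -1.08 to -0.76 over the 6 fits with 1 library left out.

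Genes of juvenile hormone did not pass the test. Of 5 tested genes of its synthesis 0 were called (1 with an unadjusted p under 0.05, 0 in DESeq2), with a median log2 change of 0.14, and of 12 tested genes of its response and breakdown 0 were called (3 with an unadjusted p under 0.05, 1 in DESeq2), with a median of 0.30. Kr-h1, the target through which the hormone holds back metamorphosis, had 55.1, 68.4 and 47.2 CPM in batch 2 tetramolters and 44.6, 53.1 and 36.0 CPM in batch 1 trimolters (log2 fold change 0.38, SE 0.20, adjusted p = 0.245), with overlap. The receptor gene MET1 had 15.1, 18.2 and 17.8 CPM in batch 2 tetramolters and 23.1, 19.7 and 22.5 CPM in batch 1 trimolters, without overlap (log2 fold change -0.32, SE 0.14, adjusted p = 0.172). Jhdk, a kinase of hormone breakdown, ranged over 949.6 to 1205 CPM in batch 2 tetramolters and 204 to 848 CPM in batch 1 trimolters, where trimolter 1 was lowest (log2 fold change 0.97, SE 0.47, adjusted p = 0.204). Hmg-r, of the mevalonate route to the hormone, had a log2 change of -0.04, jhe1, its esterase, -0.19, and Jheh2, an epoxide hydrolase, -0.40. BmMET2 had too few counts to be tested. Of 4 tested ecdysis peptide genes 0 were called (2 with an unadjusted p under 0.05, 1 in DESeq2), and ETH, the ecdysis triggering hormone, had 1.96, 2.26 and 0.917 CPM in batch 2 tetramolters and 0.552, 0.603 and 0.530 CPM in batch 1 trimolters (log2 fold change 1.62, SE 0.45, adjusted p = 0.0613).

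**Figure D3:**
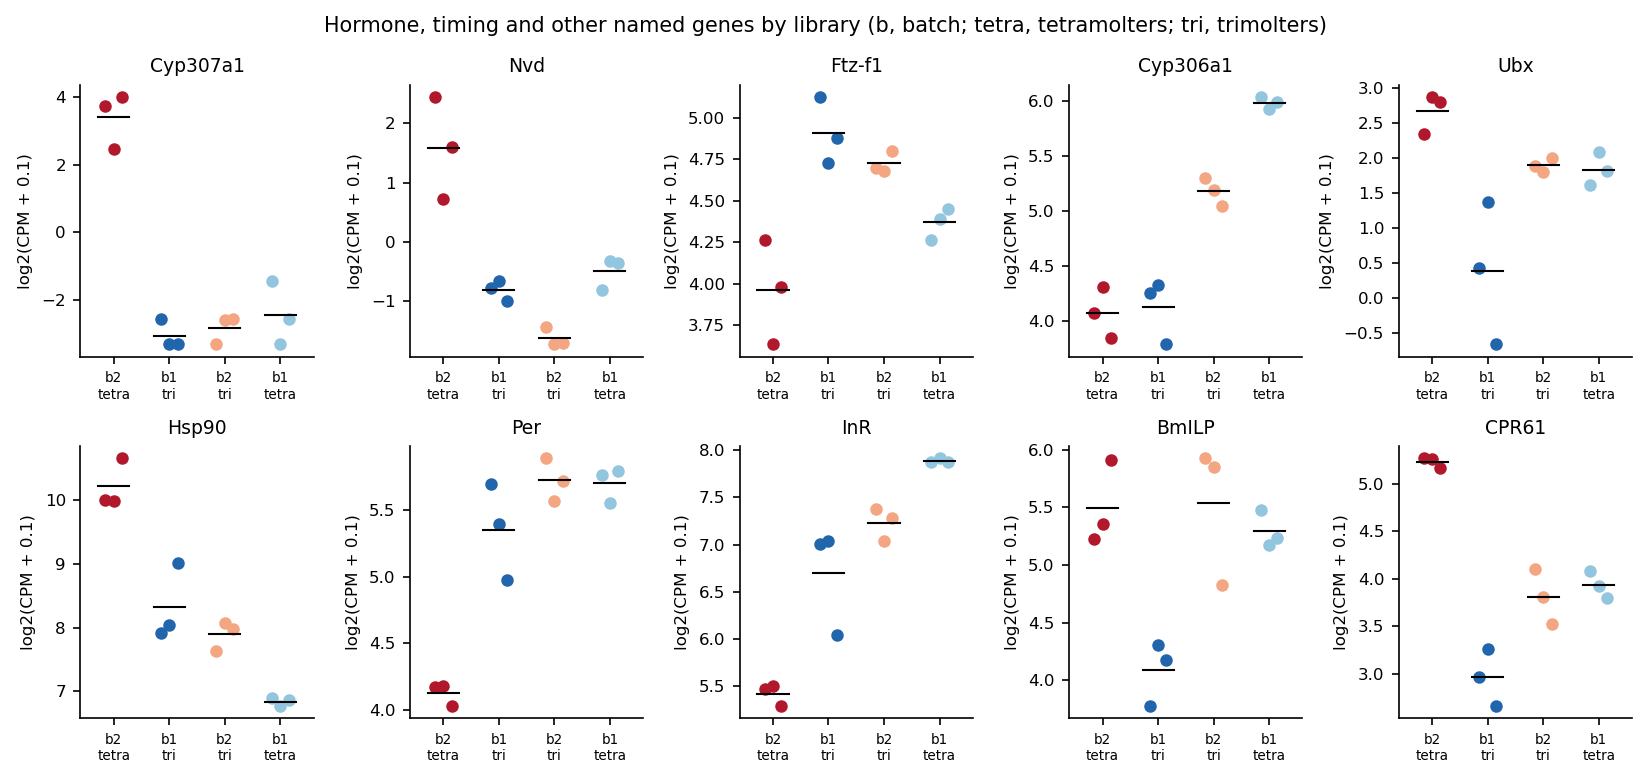
Expression by library as log2(CPM + 0.1) of genes of ecdysteroid synthesis and response, segment identity, heat shock, the clock, insulin signalling and cuticle, with points for libraries 1 to 3 and lines for group means. Cyp307a1 is above 5 CPM in the 3 batch 2 tetramolters and under 0.3 CPM in the other 9 libraries, and the group means of Ftz-f1, Per and InR are lowest in the batch 2 tetramolters.

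Although the total share was alike, single cuticle protein genes differed, most of them higher in the batch 2 tetramolters. Of 96 tested RR genes (135 with a symbol) 12 were higher and 0 lower, with 74 changes above 0 and a median log2 change of 0.75, where 5.35% of all genes were higher and their median was -0.01. CPR61 had 38.4, 38.1 and 35.7 CPM in batch 2 tetramolters, against 7.73, 9.50 and 6.23 CPM in batch 1 trimolters (log2 fold change 2.29, SE 0.18, adjusted p = 0.00456), and its call held without any 1 library (adjusted p at most 0.0310). CPR84 had 51.7, 74.3 and 71.4 CPM in batch 2 tetramolters, against 13.3, 6.18 and 14.3 CPM in batch 1 trimolters (log2 fold change 2.57, SE 0.32, adjusted p = 0.0187). In both genes the groups lay well apart, and the batch 2 tetramolters were also above the batch 2 trimolters (11.4 to 17.1 CPM and 2.13 to 3.19 CPM).

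CPR85 had 4.61, 11.4 and 9.23 CPM in batch 2 tetramolters, against 0.552, 0.678 and 0.729 CPM in batch 1 trimolters (log2 fold change 3.69, SE 0.41, adjusted p = 0.0134). CPR60 had 23.2, 38.0 and 28.1 CPM in batch 2 tetramolters, against 1.59, 1.13 and 6.70 CPM in batch 1 trimolters (log2 fold change 3.25, SE 0.61, adjusted p = 0.0315), and was under 0.6 CPM in all 6 remaining libraries. CPR131 rose as well (log2 fold change 1.94, SE 0.25, adjusted p = 0.0189). The number of RR genes called higher was 3, 1 and 1 without batch 2 tetramolter 1, 2 and 3 and 29, 13 and 10 without batch 1 trimolter 1, 2 and 3, and in the fit of all 12 libraries it was 29, with 2 lower. Without batch 1 trimolter 2, 3 were lower. Reads of near-identical cuticle protein genes may be shared between copies, and the sources used here do not state how they were assigned.

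Of 62 tested cuticle protein genes of other families 9 were higher and 1 lower, where 5.35% of all genes were higher and 4.29% lower, with a median of 0.30. The glycine-rich CPG3 had 35.3, 220.2 and 64.4 CPM in batch 2 tetramolters, against 2.69, 2.26 and 9.08 CPM in batch 1 trimolters (log2 fold change 4.52, SE 0.87, adjusted p = 0.0320), and tetramolter 2 stood above the other two of its group. CPG15 had 163, 169 and 92 CPM in batch 2 tetramolters, against 9.53, 13.5 and 31.8 CPM in batch 1 trimolters (log2 fold change 2.97, SE 0.49, adjusted p = 0.0244). CPG23 had 187, 209.9 and 181 CPM in batch 2 tetramolters, against 55.5, 38.9 and 71.5 CPM in batch 1 trimolters (log2 fold change 1.83, SE 0.24, adjusted p = 0.0190). The ranges did not overlap in any of these. CPG28 (3.09), CPG14 (1.15) and the Tweedle protein gene CPT3 (2.68) rose too. CPH24 was the member that fell, to 619, 296 and 402 CPM in batch 2 tetramolters, against 1118, 955 and 904 CPM in batch 1 trimolters (log2 fold change -1.15, SE 0.29, adjusted p = 0.0497). Without batch 2 tetramolter 1, 2 or 3 the numbers higher were 2, 0 and 0 and none was lower, and without batch 1 trimolter 2 the count of lower genes was 11.

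No gene of chitin turnover or of cuticle colour and tanning was called. Of 7 chitin turnover genes 0 passed (3 with an unadjusted p under 0.05, 2 in DESeq2; median -0.13) and of 20 melanin and tanning genes 0 passed (5 with an unadjusted p under 0.05, 3 in DESeq2; median 0.23). The yellow gene Y-y, of black melanin, had 10.4, 11 and 8.13 CPM in batch 2 tetramolters and 3.87, 2.79 and 6.30 CPM in batch 1 trimolters (log2 fold change 1.21, SE 0.31, adjusted p = 0.0528). The groups did not overlap for this gene. Chi-h, a chitinase, had 64.5, 271 and 99.9 CPM in batch 2 tetramolters and 19.5, 33.0 and 75.5 CPM in batch 1 trimolters, with overlap (log2 fold change 1.79, SE 0.66, adjusted p = 0.120).

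Transcripts of the mitochondrial genome were lower in the batch 2 tetramolters, and a few of them were near 0 in every batch 2 library. Of 11 tested members (13 with a symbol) 0 were higher and 9 lower, where 4.29% of all genes were lower, with a median log2 change of -1.95. ND2, a subunit of respiratory complex I, had 0.126, 0.258 and 0.122 CPM in batch 2 tetramolters, against 127, 78.3 and 113 CPM in batch 1 trimolters (log2 fold change -9.21, SE 0.35, adjusted p = 0.000168). It was at 0 to 0.199 CPM in batch 2 trimolters and 39.5 to 70.7 CPM in batch 1 tetramolters, so a level near 0 went with batch 2 in both molting types. ND1 had 10.7, 11.6 and 6.48 CPM in batch 2 tetramolters, against 348, 177 and 243 CPM in batch 1 trimolters (log2 fold change -4.71, SE 0.35, adjusted p = 0.00456). ND5 had 0.631, 0.258 and 0.611 CPM in batch 2 tetramolters, against 24.6, 11.2 and 16.2 CPM in batch 1 trimolters (log2 fold change -5.06, SE 0.43, adjusted p = 0.00528).

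COX3 had 363, 528 and 416 CPM in batch 2 tetramolters, against 2294, 1381 and 1852 CPM in batch 1 trimolters (log2 fold change -2.05, SE 0.26, adjusted p = 0.0187), and ND4 had 244, 266 and 205 CPM in batch 2 tetramolters, against 1174, 603 and 826 CPM in batch 1 trimolters (log2 fold change -1.84, SE 0.27, adjusted p = 0.0214). ATP6, of the ATP synthase (-1.95), CYTB, of complex III (-1.45), ND4L (-4.21) and ND3 (-1.34) fell as well. COX1 and COX2, of the terminal oxidase, were the tested members not called: COX1 had 2194, 2669 and 2560.0 CPM in batch 2 tetramolters and 4721, 2394 and 3203 CPM in batch 1 trimolters (log2 fold change -0.45, SE 0.29, adjusted p = 0.330), and COX2 had a log2 change of -0.51 (adjusted p = 0.245). ND6 and ATP8 had too few counts to be tested. Log2 changes of the 11 genes ran from -9.21 to -0.45.

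Summed over the genes, mitochondrial transcripts were 0.506% to 0.649% of the counts in batch 2 tetramolters and 0.696% to 1.27% in batch 1 trimolters (exact permutation test, 2-sided p = 0.1, the smallest that 3 against 3 libraries allow). The batch 2 trimolters (0.507% to 0.587%) and batch 1 tetramolters (0.555% to 0.636%) lay with the batch 2 tetramolters. Of 6 nuclear genes of oxidative phosphorylation 0 were called (0 with an unadjusted p under 0.05, 0 in DESeq2), with a median of 0.07. The libraries were selected for poly(A), and how much of each mitochondrial transcript carries such a tail was not measured here. Without batch 2 tetramolter 1, 2 or 3 the number lower was 3 each time, namely ND2, ND1 and ND5, and without batch 1 trimolter 1, 2 and 3 it was 7, 9 and 7.

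Some antimicrobial genes were higher in the batch 2 tetramolters and varied between their libraries. Of 34 tested immune genes (40 with a symbol) 9 were higher and 0 lower, where 5.35% of all genes were higher and 4.29% lower, with a median of 0.58. The other 25 were not called, among them the peptide genes Defensin (-0.29, adjusted p = 0.330), CecD (1.08, adjusted p = 0.177) and Enb2 (2.43, adjusted p = 0.0621). Attacin1, an antibacterial peptide, had 12.2, 133 and 78.2 CPM in batch 2 tetramolters, against 2.35, 7.01 and 6.89 CPM in batch 1 trimolters (log2 fold change 3.81, SE 0.86, adjusted p = 0.0401). CecA, a cecropin, had 2.59, 27.0 and 26.6 CPM in batch 2 tetramolters, against 0.414, 0.678 and 0.928 CPM in batch 1 trimolters (log2 fold change 4.80, SE 0.92, adjusted p = 0.0320). The gloverin gene glv3 had 24.9, 299 and 137 CPM in batch 2 tetramolters, against 5.11, 8.29 and 13.1 CPM in batch 1 trimolters (log2 fold change 4.14, SE 0.87, adjusted p = 0.0354). In each, tetramolter 1 was far below the other two of its group and above every batch 1 trimolter.

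Lzm, a lysozyme, had 29.8, 149 and 135 CPM in batch 2 tetramolters, against 9.04, 11.6 and 18 CPM in batch 1 trimolters (log2 fold change 3.05, SE 0.60, adjusted p = 0.0330), and PGRP-S1, a peptidoglycan recognition protein, had 109, 222 and 231 CPM in batch 2 tetramolters, against 41.1, 49.2 and 44.9 CPM in batch 1 trimolters (log2 fold change 2.08, SE 0.30, adjusted p = 0.0212). The other called members were CecB1 (5.22), Leb3, a lebocin (4.31), glv4-like (3.90) and CECB1, with 270 counts over the batch 2 tetramolters and 1 over the batch 1 trimolters (ratio 243, exact 95% interval 43.2 to 9612, for counting error only). 6tox, which lies outside the list, rose too (log2 fold change 3.29, SE 0.79, adjusted p = 0.0459). CecB1 and CECB1 are near-identical cecropin genes whose reads may be shared. Batch 2 trimolters held 1.26 to 4.02 CPM of Attacin1 and 0.930 to 1.13 CPM of CecA, and batch 1 tetramolters 1.5 to 3.09 CPM and 0.477 to 0.982 CPM, levels near those of the batch 1 trimolters. Summed over the 40 genes the level was 4883 to 5566 CPM in batch 2 tetramolters and 4804 to 10180 CPM in batch 1 trimolters, with overlap. The largest part of each sum was BGRP4, which is not among the peptide genes named above. It had 1791 to 2638 CPM in batch 2 tetramolters and 2448 to 6980 CPM in batch 1 trimolters (log2 fold change -1.13, adjusted p = 0.109). The number of members higher was 9, 0 and 0 without batch 2 tetramolter 1, 2 and 3, and 3, 7 and 2 without batch 1 trimolter 1, 2 and 3, with 2 lower without trimolter 1. With a weight per group in limma-voom, 1 member was called.

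Markers of cells that can make such peptides were measured beside these genes. The 3 haemocyte markers summed to 2349 to 2887 CPM in batch 2 tetramolters and 1195 to 3420 CPM in batch 1 trimolters, with 0 of 3 called (1 with an unadjusted p under 0.05, 1 in DESeq2). The 9 fat body markers summed to 11.8 to 68.2 CPM in batch 2 tetramolters and 5.17 to 41.0 CPM in batch 1 trimolters, with 2 of the 9 at 0 in each group (VG in both) and Lsp-t called higher (log2 fold change 1.89, SE 0.42, adjusted p = 0.0399). Without batch 1 trimolter 2, 2 of the 3 haemocyte markers were called higher, and without trimolter 1, 1 was lower. The call of Lsp-t was lost without any 1 of the 6 libraries and with a weight per group. The part of these cells in the change of the immune genes was not tested, and in whole tissue fewer cells of a type and less RNA per cell cannot be told apart.

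**Figure D4:**
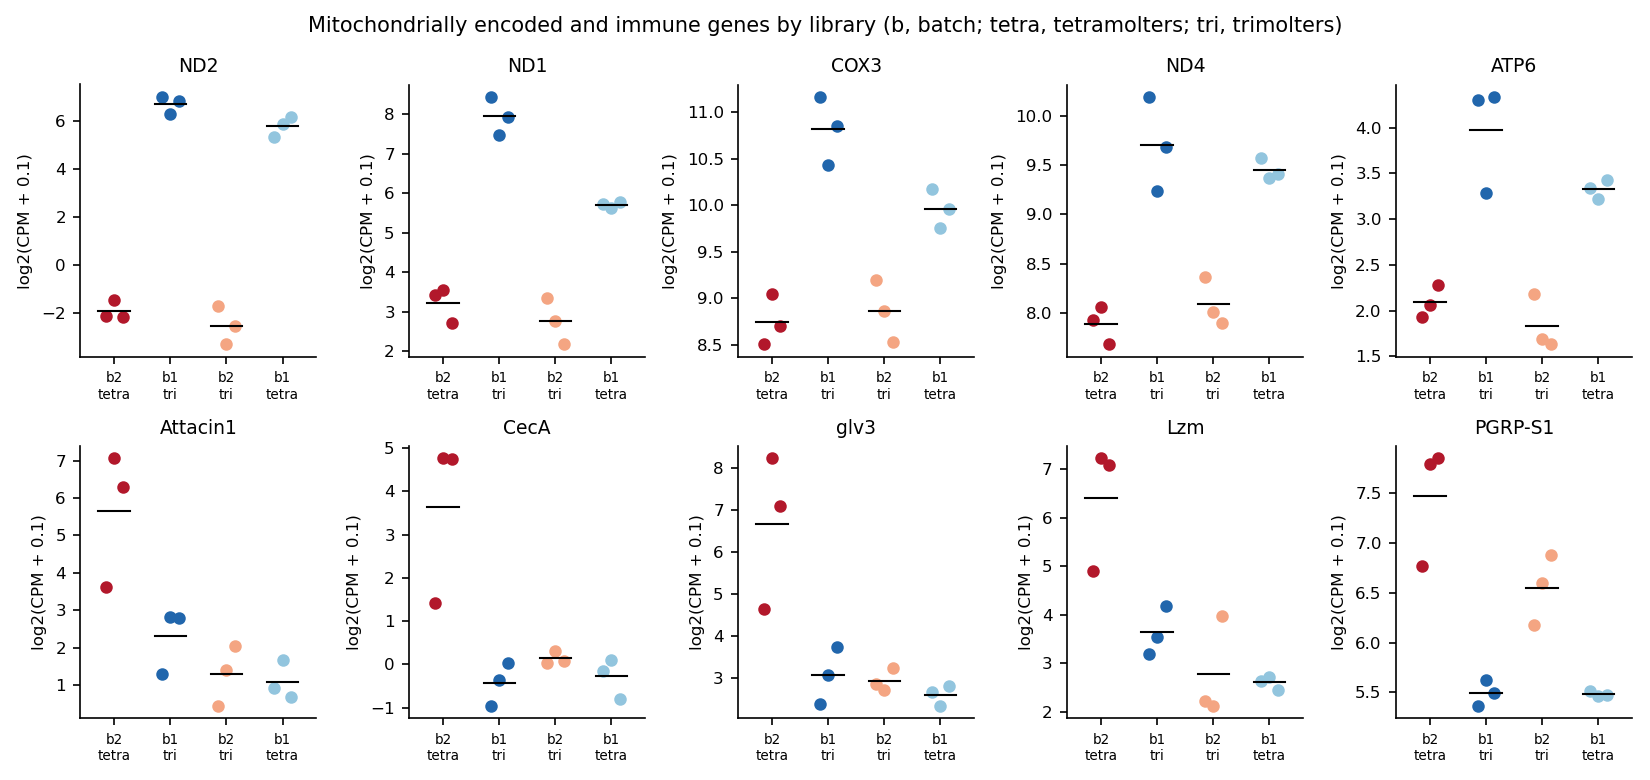
Expression by library as log2(CPM + 0.1) of mitochondrially encoded genes (upper row) and immune genes (lower row), with points for libraries 1 to 3 and lines for group means. ND2 is at 0.258 CPM or less in all batch 2 libraries and at 39.5 CPM or more in all batch 1 libraries, and Attacin1, CecA, glv3 and Lzm are highest in the batch 2 tetramolters, with tetramolter 1 lowest of that group.

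Of 31 tested heat shock genes 2 were higher and 1 lower, with a median of 0.17, a share near the 9.64% called among all genes. Hsp90, a chaperone that also folds steroid receptors, had 1018, 1011 and 1603 CPM in batch 2 tetramolters, against 242, 264 and 514 CPM in batch 1 trimolters (log2 fold change 1.86, SE 0.36, adjusted p = 0.0324). It was also higher in the batch 2 trimolters than in the batch 1 tetramolters, at 198 to 270.2 CPM and 109 to 119 CPM. The batch 2 trimolters overlapped the batch 1 trimolters, so Hsp90 was not higher in batch 2 within trimolters. HSP70 overlapped, with 794, 1173 and 1341 CPM in batch 2 tetramolters and 317, 567 and 1096 CPM in batch 1 trimolters (log2 fold change 0.76, SE 0.45, adjusted p = 0.290), and in both genes trimolter 3 was highest of its group. DnaJ-14, a co-chaperone, rose (0.82) and HSFd, of the heat shock factor gene, fell (-0.69). The small heat shock gene Hsp23.7 had 50, 92 and 158 CPM in batch 2 tetramolters and 5.87, 13.9 and 39.4 CPM in batch 1 trimolters, without overlap (log2 fold change 2.36, SE 0.71, adjusted p = 0.0749). No member was called without batch 2 tetramolter 1, 2 or 3, where the log2 change of Hsp90 stayed at 1.6 or more.

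Among the clock genes, Per, whose protein represses its own transcription in the daily cycle, had 17.9, 18 and 16.3 CPM in batch 2 tetramolters, against 51.6, 42.0 and 31.3 CPM in batch 1 trimolters (log2 fold change -1.23, SE 0.19, adjusted p = 0.0244). The groups did not overlap, and batch 2 trimolters and batch 1 tetramolters, at 47.3 to 59.0 CPM and 46.7 to 55.3 CPM, lay with the batch 1 trimolters or above them. Its partner Time had 16.5, 20.7 and 18.7 CPM in batch 2 tetramolters and 37.7, 40.9 and 22.2 CPM in batch 1 trimolters (log2 fold change -0.82, SE 0.24, adjusted p = 0.0680), without overlap. All 5 tested genes had a change below 0, 1 of them called, with a median of -0.54, and in the fit of all 12 libraries 3 were lower (13.6% of all genes). Without batch 2 tetramolter 1, 2 or 3 none was called, and the log2 change of Per was -1.41 to -1.07 over the 6 fits with 1 library left out. The sources used here do not state the hour of sampling.

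In insulin and TOR signalling, the ligand gene BmILP and the receptor gene InR differed in opposite directions. BmILP, an insulin-like peptide gene, had 37.3, 40.7 and 60.1 CPM in batch 2 tetramolters, against 13.6, 19.7 and 18 CPM in batch 1 trimolters (log2 fold change 1.46, SE 0.23, adjusted p = 0.0244). Batch 2 trimolters had 28.3 to 60.6 CPM and batch 1 tetramolters 36.1 to 44.3 CPM, so the batch 1 trimolters were the low group. InR, the insulin receptor, had 44.2, 45.3 and 39.1 CPM in batch 2 tetramolters, against 128, 131 and 65.8 CPM in batch 1 trimolters (log2 fold change -1.31, SE 0.27, adjusted p = 0.0343). Rheb, the small GTPase that activates TOR, had 2.15, 1.94 and 2.2 CPM in batch 2 tetramolters, against 7.39, 6.33 and 4.38 CPM in batch 1 trimolters (log2 fold change -1.49, SE 0.26, adjusted p = 0.0291). None of the 3 overlapped between groups. Both TOR1 (-0.21) and TOR2 (-0.31) were uncalled. Of 9 tested genes 1 was higher and 2 were lower, where 5.35% of all genes were higher and 4.29% lower, with a median of -0.21. Of the 34 listed symbols 16, mostly bombyxins, had fewer than 10 counts over the 6 libraries. The 3 calls were lost without any 1 of the batch 2 tetramolters, with adjusted p of up to 0.109 for BmILP, 0.144 for InR and 0.130 for Rheb.

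Ubx, the Hox gene that in Drosophila marks the hind thorax and front abdomen, had 4.99, 7.23 and 6.84 CPM in batch 2 tetramolters, against 1.24, 2.49 and 0.530 CPM in batch 1 trimolters (log2 fold change 2.2, SE 0.49, adjusted p = 0.0394). Batch 2 trimolters had 3.39 to 3.88 CPM and batch 1 tetramolters 2.95 to 4.14 CPM, between the 2 groups. Scr had a log2 change of -0.02 (adjusted p = 0.966), and Dfd of -0.41. The call of Ubx was lost without any 1 batch 2 tetramolter or without batch 1 trimolter 1 or 3, with a log2 change of 1.78 to 2.86 over the 6 fits with 1 library left out.

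Of 85 tested detoxification enzyme genes 7 were higher and 6 lower, where 5.35% of all genes were higher and 4.29% lower, with a median of 0.22. The glucosyltransferase gene UGT42A2, of a family that makes foreign and internal compounds soluble, had 18.4, 18.4 and 24.4 CPM in batch 2 tetramolters, against 7.32, 7.16 and 6.63 CPM in batch 1 trimolters (log2 fold change 1.56, SE 0.17, adjusted p = 0.0134). UGT33D7 had 254 counts over the batch 2 tetramolters and 3 over the batch 1 trimolters (ratio 76.0, exact 95% interval 25.7 to 371, for counting error only), and UGT33D6 rose too (3.57), though genes of this cluster may share reads. The P450 gene CYP340C1 fell to 7.89, 5.68 and 11.1 CPM in batch 2 tetramolters, against 29.0, 33.4 and 22.0 CPM in batch 1 trimolters (log2 fold change -1.74, SE 0.27, adjusted p = 0.0244). UGT10286 (-1.22) and the P450 gene Cyp305b1 (-1.90) fell as well. Without batch 2 tetramolter 1, 2 and 3, 2, 0 and 0 members were higher and none was lower.

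Serpins are inhibitors of proteases such as those of the melanisation cascade. Of 16 tested 1 was higher and 1 lower, where 5.35% of all genes were higher and 4.29% lower, with a median of -0.20. The gene serpin-9 had 165, 54.4 and 98.7 CPM in batch 2 tetramolters, against 417, 682 and 319 CPM in batch 1 trimolters (log2 fold change -2.13, SE 0.45, adjusted p = 0.0362), and serpin-5 had 273, 315 and 347 CPM in batch 2 tetramolters, against 193, 206 and 197 CPM in batch 1 trimolters (log2 fold change 0.68, SE 0.16, adjusted p = 0.0426). Neither overlapped between groups. Both calls were lost without any 1 batch 2 tetramolter and with a weight per group, and that of serpin-5 also without batch 1 trimolter 1 or 3. AGPAT5, an acyltransferase of phospholipid synthesis, had 12.8, 7.94 and 8.25 CPM in batch 2 tetramolters, against 42.7, 42.5 and 14.3 CPM in batch 1 trimolters (log2 fold change -1.75, SE 0.42, adjusted p = 0.0467), with trimolter 3 closest to the tetramolters, and its call was lost without any 1 batch 2 tetramolter or without trimolter 1 or 2 of batch 1.

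Replication and cell cycle genes mostly had changes above 0, 21 of 24, with a median of 0.41, and 2 were called higher and 0 lower, where 5.35% of all genes were higher and 4.29% lower. RnrS, the small subunit of ribonucleotide reductase, had 73.2, 52.9 and 71.5 CPM in batch 2 tetramolters, against 22.1, 32.9 and 37.3 CPM in batch 1 trimolters (log2 fold change 1.12, SE 0.23, adjusted p = 0.0348). Cdc2, the mitotic kinase, rose too (0.76), while Pcna, the sliding clamp, had 34.6, 27.7 and 29.5 CPM in batch 2 tetramolters and 18.8, 24.5 and 18.8 CPM in batch 1 trimolters without passing (log2 fold change 0.59, SE 0.16, adjusted p = 0.0620). In the fit of all 12 libraries 8 were higher and 1 lower, where 14.4% and 13.6% of all genes were, and without any 1 batch 2 tetramolter none was called.

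Of 79 cytosolic ribosomal protein genes 1 was higher and 0 lower, where 5.35% of all genes were higher and 4.29% lower, with a median of 0.09. Their summed level was 64460.0 to 68200.0 CPM in batch 2 tetramolters and 56860.0 to 74970.0 CPM in batch 1 trimolters. The called gene, RpL7Ae, had 72.7, 77.3 and 89.0 CPM in batch 2 tetramolters, against 21.1, 30.6 and 43.2 CPM in batch 1 trimolters (log2 fold change 1.36, SE 0.26, adjusted p = 0.0321). All 10 mitochondrial ribosomal protein genes had changes above 0, 1 of them called (mRpS12, 0.63), with a median of 0.54. The call of RpL7Ae was lost without any 1 batch 2 tetramolter, and that of mRpS12 without any 1 of the 6 libraries. Of 15 autophagy and cell death genes 0 were called (2 with an unadjusted p under 0.05, 0 in DESeq2; median -0.10), and of 16 chemosensory genes 0 (5 with an unadjusted p under 0.05, 0 in DESeq2; median 0.46).

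Of 9 tested muscle markers Projectin fell, to 9.66, 14.2 and 11.9 CPM in batch 2 tetramolters, against 40.6, 22.1 and 21.9 CPM in batch 1 trimolters (log2 fold change -1.21, SE 0.28, adjusted p = 0.0421), the others were not called, and the median was -0.50. The 10 listed summed to 26740.0 to 32630.0 CPM in batch 2 tetramolters and 28800.0 to 61730.0 CPM in batch 1 trimolters, with trimolter 1 highest. Of 8 midgut markers IIM1, an intestinal mucin gene, fell, to 6900.1, 5856 and 4627 CPM in batch 2 tetramolters, against 9595, 18485 and 18272 CPM in batch 1 trimolters (log2 fold change -1.39, SE 0.34, adjusted p = 0.0485). The other midgut markers were not called, 5 of the 8 had a change above 0, and the median was 0.23. Apn4 was higher without overlap, but not called (log2 fold change 0.87, adjusted p = 0.136). The 9 listed summed to 9335 to 11460.0 CPM in batch 2 tetramolters and 11380.0 to 23720.0 CPM in batch 1 trimolters, and IIM1 was the largest part of each sum. Of 9 tested markers of the nervous system and eye nAChRa6, an acetylcholine receptor subunit, fell (log2 fold change -1.94, SE 0.41, adjusted p = 0.0362). The others were not called, 5 changes were above 0 and 4 below, and the median was 0.04. The subunits nAChRa9 (2.25, adjusted p = 0.0930), nAChRb2 (2.24, adjusted p = 0.126) and nAChRb3 (2.33, adjusted p = 0.0965) were higher without overlap. The 17 listed summed to 101 to 130 CPM in batch 2 tetramolters and 64.8 to 68.8 CPM in batch 1 trimolters. Batch 1 trimolter 1 stood apart in these subunits, with nAChRa9 at 0.690, 12.4 and 8.62 CPM and nAChRb2 at 0.0690, 6.26 and 5.04 CPM in batch 1 trimolters 1, 2 and 3. Of 3 trachea markers 0 were called (1 with an unadjusted p under 0.05, 0 in DESeq2), and the 8 listed summed to 41.5 to 45.1 CPM in batch 2 tetramolters and 44.9 to 60.1 CPM in batch 1 trimolters. The calls of Projectin, IIM1 and nAChRa6 were lost without any 1 batch 2 tetramolter, that of IIM1 also without batch 1 trimolter 2 or 3 and that of nAChRa6 also without trimolter 1 or 3. Without batch 1 trimolter 1, 2 muscle and 3 nervous system markers were called higher, and 1 of each lower. Without trimolter 2, 3 muscle and 2 nervous system markers were lower and 1 midgut marker was higher. The part of tissue makeup in the changes of other genes was not tested.

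To see which differences went with batch and which with molting type, the batch 2 trimolters were compared with the batch 1 tetramolters, the pair in which batch differs in the same sense and molting type in the reverse sense, and which shares no library with the first pair. There 4997 of 10368 tested genes differed (48.2%), 2481 higher in batch 2 trimolters (23.9%) and 2516 lower (24.3%), and 1068 were called with a change of at least 1 log2 unit (10.3%). The median absolute log2 change was 0.35 in either pair, and the spread between replicates was smaller in the second. Of 10050 genes tested in both, 952 were called in the first pair and 4897 in the second. Called in both in the same direction were 440 genes (46.2% of the first list and 8.99% of the second). Of these, 212 were higher in the batch 2 group of each pair and 228 lower. Called in both in opposite directions were 117 genes (12.3% and 2.39%), of which 62 were higher in the tetramolters of each pair and 55 lower. The remaining 395 were called in the first pair only (41.5%), which does not show that they did not differ in the second. Averaged over both pairs in the fit of all 12 libraries, batch 2 minus batch 1 had 37.2% of 10721 genes called, 18.3% higher, 18.9% lower and 6.53% with a change of at least 1 log2 unit. Tetramolters minus trimolters had 15.7% called, 8.62% higher, 7.04% lower and 2.2% with such a change.

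**Figure D5:**
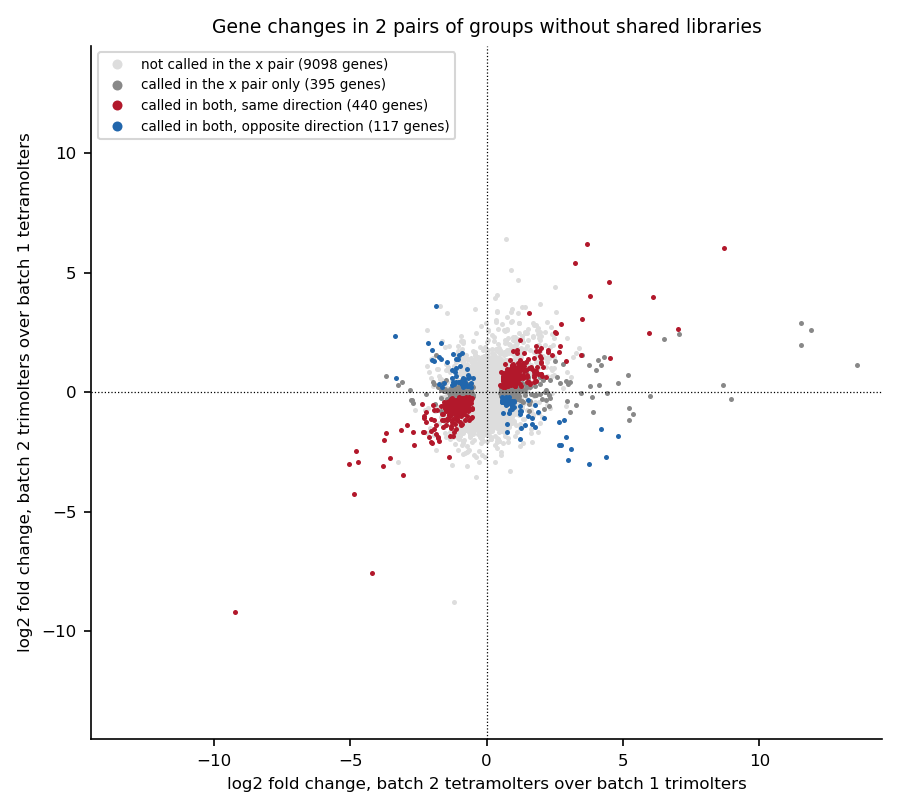
Log2 fold change of each gene in batch 2 tetramolters over batch 1 trimolters (x axis) and in batch 2 trimolters over batch 1 tetramolters (y axis) for 10050 genes tested in both. Of the called genes, 440 lie in the quadrants of equal sign, 117 in those of opposite sign, and 395 were called on the x axis only.

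Genes with the same direction in both pairs differed between batches when averaged over the pairs, which need not hold within each molting type. Next to ND2, ND1 and ND5 they included ND4L, which had 0 to 0.133 CPM in batch 2 trimolters, against 12.1 to 17.1 CPM in batch 1 tetramolters. These mitochondrial genes were lower in batch 2 within both molting types, without overlap. CPT3 had 2.46 to 3.47 CPM in batch 2 trimolters, against 0.335 to 0.982 CPM in batch 1 tetramolters (log2 fold change 1.94, SE 0.38, adjusted p = 0.00236). UGT33D7 had 3.26 to 7.15 CPM in batch 2 trimolters, against 0.136 to 0.421 CPM in batch 1 tetramolters (log2 fold change 3.99, SE 0.45, adjusted p = 8.99e-05). Hsp90 (1.04), CYP340C1 (-2.03), InR (-0.67), Projectin (-1.68) and RnrS (0.97) were also called in the second pair with the same direction as in the first. Within trimolters the ranges of Hsp90 overlapped between batches. InR was not lower in batch 2 within trimolters, at 131.3 to 165.9 CPM against 65.83 to 131.1 CPM in batch 1. Projectin overlapped within trimolters, at 21.59 to 23.37 CPM in batch 2 and 21.88 to 40.59 CPM in batch 1. Per (log2 fold change -0.00, SE 0.10, adjusted p = 0.988), Attacin1 (log2 fold change 0.26, SE 0.43, adjusted p = 0.634) and Ubx (log2 fold change 0.03, SE 0.21, adjusted p = 0.929) were not called in the second pair. Cyp307a1 and Nvd had too few counts in the second pair to be tested.

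Genes with opposite directions differed between molting types when averaged over the pairs, which need not hold within each batch. CPG15 was higher in the batch 2 tetramolters than in the batch 1 trimolters (2.97), and in the second pair it had 5.91, 1.86 and 3.68 CPM in batch 2 trimolters, against 27.5, 27.6 and 25.2 CPM in batch 1 tetramolters (log2 fold change -2.83, SE 0.27, adjusted p = 3.66e-05). The gene serpin-9 was lower in both tetramolter groups, with 263, 379 and 307 CPM in batch 2 trimolters, against 73.3, 77.2 and 73.3 CPM in batch 1 tetramolters (log2 fold change 2.06, SE 0.12, adjusted p = 3.59e-06). Ftz-f1 was lower in both as well, with 25.9, 25.5 and 27.8 CPM in batch 2 trimolters, against 19.2, 20.9 and 21.8 CPM in batch 1 tetramolters (log2 fold change 0.33, SE 0.09, adjusted p = 0.0132). CPH24 had changes of -1.15 and 0.84 in the first and second pair, Cyp332a1, a P450 gene, of 1.21 and -0.77, CPR40 of 0.70 and -0.50, and Lsp-t, a storage protein gene, of 1.89 and -0.84. Within batch 1 the ranges of CPG15 overlapped between molting types. Lsp-t overlapped within batch 2, at 2.453 to 5.995 CPM in tetramolters and 3.2 to 6.456 CPM in trimolters, but not within batch 1.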

How the data were processed

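Gene expression was measured by RNA sequencing in 12 silkworm libraries, of which the 6 of batch 2 tetramolters and batch 1 trimolters enter the comparison described. The authors deposited raw counts per gene, and FPKM values, which the authors normalized for gene length and library size. The submitters' processing notes name DESeq2 1.38.3, HISAT2 2.2.1, StringTie 2.2.1 and Trimmomatic 0.39, with no role given, and the labels' extract protocol names another HISAT2 version. For the counting program, genome build, annotation and strand setting, nothing was given in the sources used here. Batch 1 trimolter 2 has an empty FPKM column, the only 1 not used. Of 17583 rows, 511 of unannotated loci were dropped, and 14945 rows matched the RefSeq gene table (assembly ASM3026992v2), which gave names only.

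Counts were tested with edgeR 4.0.16 in R 4.3.3 (TMM scaling, filterByExpr, quasi-likelihood F test, Benjamini-Hochberg adjustment, threshold 0.05), fitted to the 6 libraries, and likewise for the other pair. CPM use these scaled totals of the 12 libraries. Alternatives were a fit of all 12 libraries, other scalings, no filter, DESeq2 1.42.0, limma 3.58.1 on the counts and on log2(FPKM + 1) or log2(FPKM + 0.1), a replicate block, and each library left out. limma-voom with a weight per group was chosen after seeing the data. Scripts were tested on simulated data. The pair, the members and the lists were chosen with earlier results of these data known. Genes named are a fixed set of hormone, stress and immune genes, the 12 called genes that rose most and the 12 that fell most of those with a symbol, a log2 CPM averaging 1 or more and no overlap between groups, up to 5 members of each list by smallest p, and 6 genes each called in both pairs with equal or opposite signs. Members named beyond these were chosen after their values were seen.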

Additional observations from a re-analysis of the deposited data

Results flagged for a closer look

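For 9 of the named genes the difference between batch 2 tetramolters and batch 1 trimolters was called with the opposite sign to that between batch 2 trimolters and batch 1 tetramolters. They are listed because of these opposite calls, and some of them were named for that reason, so the first difference minus the second in the fit of all 12 libraries is given as a description, with no test. On the log2 scale this value was 5.826 for CPG15, 2.755 for Lsp-t, 2 for Cyp332a1, 1.219 for CPR40 and 0.9763 for serpin-5. It was -4.168 for serpin-9, -2.088 for AGPAT5, -1.971 for CPH24 and -1.223 for Ftz-f1.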

How the results depend on the processing

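The count of 989 genes (549 higher, 440 lower in batch 2 tetramolters) was 3005 with all 12 libraries in the fit (1545 higher, 1460 lower), 1863 with DESeq2 (989 higher, 874 lower), 624 with limma-voom and a weight per group (324 higher, 300 lower), and 13 to 1052 with 1 library left out (7 to 532 higher, 5 to 520 lower). It stayed within 1.5 times with 2 other scalings, without cuticle genes in the library sizes, without the filter, with limma-voom and on FPKM. Of its calls 55.51% were higher, against 47.06% with upper quartile scaling, 68.26% on log2(FPKM + 1), where 252 were lower, and 70.27% on log2(FPKM + 0.1), where 209 were lower. The FPKM fits left out batch 1 trimolter 2, whose column is empty, and the causes were not tested. The second pair had 4997 calls, and 2940 with all 12 libraries. The 440 genes called in both pairs in the same direction were 840 with all 12 libraries, 815 with DESeq2 and 5 to 513 with 1 library left out, and the 117 with opposite directions were 233, 203, 62 with a weight per group and 0 to 129. The mean molting type difference had 1679 calls, and 909 to 2503 with 1 library left out. Over named genes, 2209 values under the alternatives kept their direction and side of the threshold, 335 lost the call, 116 gained it and none reversed.

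Replicate numbers are shared between groups, but libraries with the same number did not deviate together (r = 0.109, -0.0243 and 0.0386 across genes), and batch 2 tetramolter 2 was closer to batch 1 trimolter 3 (r = 0.14). With the replicate number as a block 366 genes passed (209 higher, 157 lower), 330 of them among the 989, and the numbers called in both pairs were 189 with the same and 39 with opposite directions.

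The main limits are 3 libraries per group, the wide spread among batch 1 trimolters, and genes with few counts, which could not be tested.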
